A study of Rattus norvegicus with 2 samples.

Results

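Kiss1, Tac3, Tac1, Pdyn, Sox14, Tacr3, Tacr1 and Oprk1 are the genes of the kisspeptin neuron, its co-transmitters and their receptors. They were taken as a list of symbols, not by a limit on their values, but with earlier results of these data known. They are 8 of the 32883 genes counted in each of 2 single-cell RNA libraries of rat hypothalamus. Their identifiers in the files are Kiss1 (ENSRNOG00000047481), Tac3 (ENSRNOG00000004229), Tac1 (ENSRNOG00000007374), Pdyn (ENSRNOG00000026036), Sox14 (ENSRNOG00000022084), Tacr3 (ENSRNOG00000009372), Tacr1 (ENSRNOG00000005853) and Oprk1 (ENSRNOG00000007647). The tissue held the anteroventral periventricular nucleus (AVPV) and the arcuate nucleus (ARC) of female Sprague Dawley rats at postnatal day (PND) 29. The Control library came from rats that the labels call intact and that carried an oil capsule by the study's methods. The SC300 library came from rats that received, at PND 0.5, a silicone capsule with 300 µg estradiol benzoate (EB), an ester of the ovarian estrogen estradiol. This content follows the sample labels and the methods, whereas the design text of the series names only the sesame oil vehicle for SC300. Each library is pooled tissue of 3 rats, so the spread between rats is not measured and no difference between Control and SC300 could be tested. Values are counts of unique molecular identifiers (UMIs, 1 per captured RNA molecule), and levels are CPM, the UMIs of a gene per 1000000 UMIs of the class of barcodes. All intervals are 95% and cover counting error only, being exact Poisson for a CPM, Clopper-Pearson for a share and conditional binomial for a log2 ratio of SC300 over Control.

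Kisspeptin, the product of Kiss1, is the peptide that drives gonadotropin-releasing hormone neurons, and estrogen acts on Kiss1 in opposite directions in the AVPV and the ARC. Kisspeptin neurons of the ARC also make neurokinin B, the product of Tac3, and dynorphin, the product of Pdyn, which are held to act back on the same neurons as a stimulating and a restraining signal. Neurokinin B acts through the receptor Tacr3, dynorphin through the kappa opioid receptor Oprk1, and substance P, which is made from Tac1, through Tacr1, while Sox14 is a transcription factor. Tanycytes are the elongated glia that line the floor of the third ventricle beside the ARC.

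Of the 8 genes, 6 had a promoter in the RefSeq table of assembly GRCr8, and Tac3 and Oprk1 are not shown. The Kiss1 and Tac1 promoters are printed because these are the 2 genes with at least 50 UMIs in neurons and in tanycytes. Each run holds the 250 bases before and the 50 bases after the start of transcription, 5′ to 3′ on the gene's strand, and the capitals mark the 50 transcribed bases. Kiss1 lies on the plus strand at chr13:47326909-47327208, and 60.7% of its bases are G or C. Tac1 lies on the plus strand at chr4:36645333-36645632 with 56.0% G or C.
Kiss1: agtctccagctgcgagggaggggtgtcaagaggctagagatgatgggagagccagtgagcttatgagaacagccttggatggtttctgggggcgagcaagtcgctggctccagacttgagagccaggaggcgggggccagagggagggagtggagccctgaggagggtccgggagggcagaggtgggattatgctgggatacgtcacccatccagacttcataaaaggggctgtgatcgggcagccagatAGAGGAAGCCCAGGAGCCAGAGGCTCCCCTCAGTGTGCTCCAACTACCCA
Tac1: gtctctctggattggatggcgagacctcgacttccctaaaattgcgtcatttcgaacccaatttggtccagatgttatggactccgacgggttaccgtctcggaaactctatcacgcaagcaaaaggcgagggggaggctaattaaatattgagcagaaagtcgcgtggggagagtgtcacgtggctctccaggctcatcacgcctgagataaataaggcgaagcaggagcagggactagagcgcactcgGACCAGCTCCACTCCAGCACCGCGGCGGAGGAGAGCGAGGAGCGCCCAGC
In all, 5 motifs were searched on both strands. The whole estrogen response element GGTCANNNTGACC was in none of the 6 promoters and in 0.0269% of all 33469, and its core GGTCA, which it contains, was in Tacr1 and in 40.5% of all. The GC box GGGCGG was in Sox14 (33.1% of all), TATAAA was in Pdyn, Tacr3 and Tacr1 (14.2% of all), and the cAMP response element TGACGTCA was in none of the 6 (1.83% of all). None of the 5 motifs was in the Kiss1 or Tac1 window, which says only that these letters are not there.

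The Control library held 4296 barcodes with at least 200 detected genes and 51382276 UMIs, and the SC300 library held 4379 and 56390355. Neuronal barcodes, those with at least 4 of 6 pan-neuronal genes, numbered 380 in Control (8.85%) and 361 in SC300 (8.24%), with median depths of 28685.5 and 28871 UMIs. Tanycyte barcodes, those with at least 3 of 5 tanycyte genes and under 2 Snap25 UMIs, numbered 321 (7.47%) and 194 (4.43%), with medians of 10861 and 12098.5 UMIs. Some genes of this rule differed between Control and SC300 tanycytes. Stra6 was in 72.0% and 51.5%, Ppp1r1b was at 801 and 434 CPM, and Crym was at 1708 and 2658 CPM. Lhx2 (205 and 196 CPM) and Calml4 (306 and 322 CPM) were closer. Whether the rule took the same kinds of cells from both libraries was not tested. Tanycyte genes that the rule did not use summed to 3679 CPM in Control tanycytes and 2986 in SC300 tanycytes, with 7 of 8 above the level in the other barcodes. Vim alone gave 17259 of these 18540 UMIs in Control and 9893 of 10754 in SC300. Vim was also in 26.8% and 24.9% of the barcodes that were neither neuronal nor tanycyte. In tanycytes the defining gene Rax had only 18 and 16 UMIs, and Col23a1 had 1 and 0. Ependymal genes were also at 2299 and 1949 CPM in tanycytes, and the part of ependymal cells in the class was not tested. In neuronal barcodes, ependymal genes summed to 147 CPM in Control and 16.2 CPM in SC300, and oligodendrocyte genes to 30.004 and 153 CPM. Tanycyte genes that the rule did not use summed there to 171 and 38.5 CPM, with Rax and Col23a1 at 0, and astrocyte genes to 276 and 143 CPM, and the part of these in the Kiss1 and Tac3 levels was not tested. Without the 9 Control and 3 SC300 neuronal barcodes that held 3 ependymal markers, a choice made after seeing the data, the neuronal log2 ratios given below were -1.35 for Kiss1 and -2.29 for Tac3. Without barcodes holding 3 microglia or oligodendrocyte markers they were -1.31 and -2.11, and the genes that moved most were Pdyn, to 0.47, and Tacr3, to 1.04. The libraries shared 7 barcode sequences, which held 24 and 2 UMIs of the 8 genes.

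Of the 8 genes, 7 had at least 50 UMIs over both libraries in neuronal barcodes. Kiss1, Tac3 and Sox14 were over 1.5-fold lower in SC300, which is 3 of 7 (42.9%) against 6.99% of the 10914 neuronal genes with that many UMIs. Pdyn and Tacr3 were over 1.5-fold higher, which is 2 of 7 (28.6%) against 2.68% of all. Tac1 and Oprk1 lay within 1.5-fold, and no neuronal UMI of Tacr1 was counted in either library. The median log2 ratio was 0.18 over the 7 genes and -0.07 over all genes. These counts compare 1 library with 1 library, for a list chosen with earlier results of these data known. For Kiss1, Tac3, Pdyn and Tacr3 they rested in large part on a few barcodes, as given for each gene. Kiss1 and Tac3 were not separate counts, because the same 6 Control barcodes held 819 of 872 Kiss1 and 1831 of 2279 Tac3 UMIs. Without the 5 highest barcodes of each library the Kiss1 direction reversed.

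**Figure D1:**
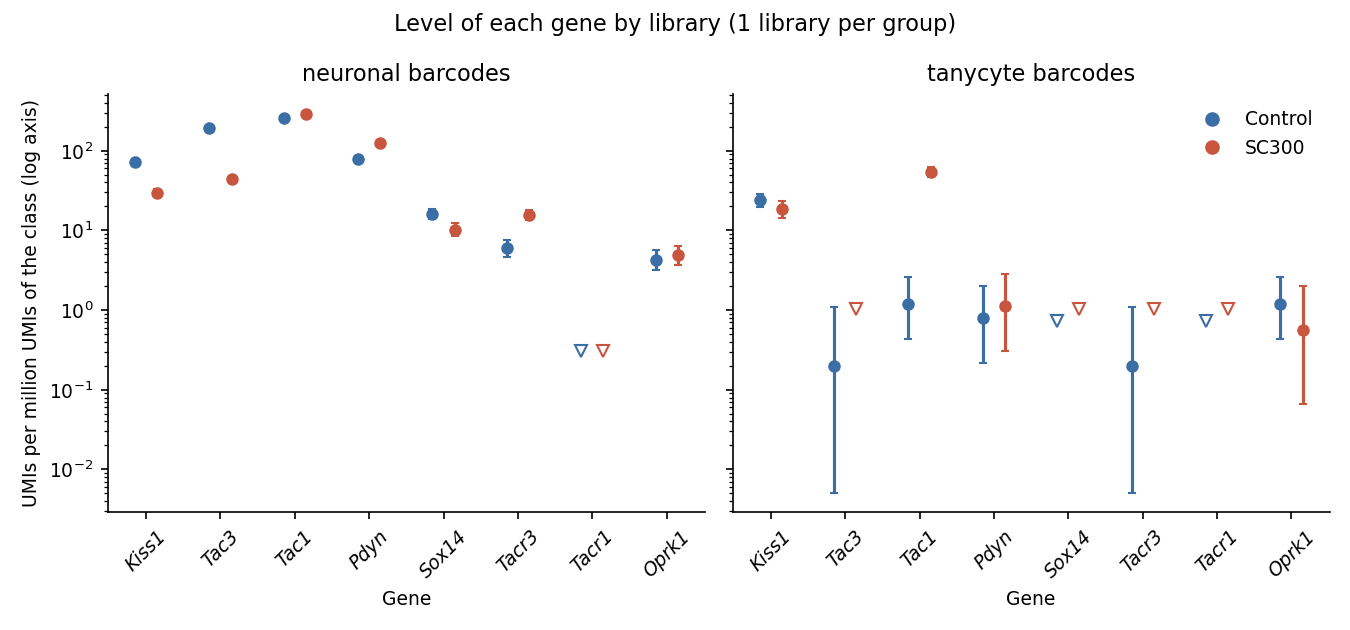
Level of the 8 genes in CPM (log axis) in neuronal barcodes (left) and tanycyte barcodes (right), with Control in blue and SC300 in red. Points are 1 library each, bars are exact 95% Poisson intervals of counting error, and open triangles are the upper limit where no UMI was counted. In neuronal barcodes Kiss1 was at 73.3 and 29.5 and Tac3 at 191.5 and 44.5, and in tanycytes Tac1 was at 1.19 and 54.4.

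Kiss1 in neurons was lower in SC300 when its UMIs were summed, while more SC300 barcodes held it. Neuronal barcodes held 872 Kiss1 UMIs in Control and 351 in SC300, which is 73.3 CPM (68.5 to 78.3) and 29.5 CPM (26.5 to 32.7). SC300 was thus 2.49-fold lower, a log2 ratio of -1.31 (-1.497 to -1.134). Kiss1 was detected in 22 Control barcodes, 5.79% (3.66 to 8.63), and in 35 SC300 barcodes, 9.70% (6.85 to 13.2). The interval of the log2 ratio of these shares, 0.74 (-0.07 to 1.58), holds 0. With 2 UMIs or more asked, 9 and 22 barcodes were left and the ratio was 1.36 (0.19 to 2.67), and without barcodes holding 3 microglia or oligodendrocyte markers it was 0.95 (0.10 to 1.83), both above 0. In each of the other alternatives the interval held 0. At 2000 UMIs per barcode 9 of 380 (2.37%) and 11 of 360 (3.06%) held the gene, a log2 ratio of 0.37 (-1.04 to 1.82). Shares in cells that should lack Kiss1 were lower, at 1 of 494 Control microglia (0.202%) and 0 of 489 SC300 microglia. A floor of 3 counts in SC300 microglia is 0.613%. Microglia were shallower, however, with medians of 7266 and 7824 UMIs. In oligodendrocytes, with medians of 20178 and 20809 UMIs, 3 of 399 (0.752%) and 3 of 511 (0.587%) held it.

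The lower sum came from the barcodes with the most Kiss1. The highest Control barcode held 199 Kiss1 UMIs and the highest SC300 barcode 66, and the 5 highest held 90.4% of all neuronal Kiss1 UMIs in Control and 64.7% in SC300. Without the 5 highest of each library the direction reversed, with 84 UMIs in Control and 124 in SC300 and a log2 ratio of 0.57 (0.16 to 0.99). Leaving out the single highest barcode kept the lower level, with a log2 ratio of -1.24. In both libraries 13 barcodes held a single Kiss1 UMI, and 7 Control and 10 SC300 barcodes held 10 or more.

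Tac3, which encodes neurokinin B, was also lower in SC300 neurons, and here both the sum and the number of rich barcodes were lower. The neuronal sums were 2279 UMIs in Control, 191.5 CPM (184 to 200), and 530 in SC300, 44.5 CPM (40.8 to 48.5). SC300 was 4.30-fold lower, a log2 ratio of -2.11 (-2.24 to -1.97). The gene was detected in 36 barcodes (9.47%) and 26 barcodes (7.20%), a log2 ratio of shares of -0.40 with an interval from -1.18 to 0.37, and after thinning in 14 and 8. At least 10 UMIs were in 12 Control and 5 SC300 barcodes. A single SC300 barcode with 264 Tac3 UMIs made up 49.8% of the SC300 sum. Leaving out the highest barcode of each library moved the log2 ratio to -2.74, and leaving out the 5 highest moved it to -3.64. In oligodendrocytes 4 of 399 (1.00%) and 4 of 511 (0.783%) held a Tac3 UMI.

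Several of the 8 genes met in a small set of barcodes that held both Kiss1 and Tac3. There were 6 of 380 in Control, 1.58% (0.582 to 3.40), and 7 of 361 in SC300, 1.94% (0.783 to 3.95), so the number was alike and the content was not. The Control barcodes held 819 Kiss1 UMIs, 93.9% of the neuronal total, and 1831 Tac3 UMIs. The SC300 barcodes held 120 Kiss1 UMIs, 34.2% of the total, and 364 Tac3 UMIs. With at least 2 UMIs of each gene, 6 Control and 3 SC300 barcodes remained, and none of the 6 and 1 of the 7 had been called a doublet.

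In Control these barcodes resembled one another. The first held 199 Kiss1, 404 Tac3, 15 Pdyn and 4 Sox14 UMIs, and the second 195, 353, 10 and 9 in the same order of genes. The third held 172, 499, 13 and 5, the fourth 136, 337, 7 and 4, and the fifth 86, 220, 25 and 6. The sixth held 31, 18, 2 and 1, in a barcode of 6346 UMIs of which 48.2% were mitochondrial. Each of the 6 thus held all 4 genes. Of the 6 barcodes, 5 held Slc17a6, the vesicular glutamate transporter, and 0 held Slc32a1, the vesicular transporter of GABA neurons. Tacr3 was in 4, Oprk1 in 1 and Tac1 in 0. The estrogen receptor Esr1 was in 5, the progesterone receptor Pgr in 2 and the nuclear receptor Nr5a2 in 5.

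In SC300 only 1 of the 7 had high counts of both genes, with 66 Kiss1, 264 Tac3, 0 Pdyn and 2 Sox14 UMIs, and it held Slc17a6. The second held 48 Kiss1 and 7 Tac3 UMIs with 5 of Pdyn, the third 2 and 40, and the fourth 1 and 50. These 3 held 17, 49 and 30 UMIs of Slc32a1 and 0 of Slc17a6. The other 3 barcodes held 1 UMI of each gene, which is a level that free RNA also gives. Pdyn was in 2 of the 7, Sox14 in 1, Tacr3 in 1, Tac1 in 3, Slc17a6 in 2 and Slc32a1 in 5. Kiss1, Tac3 and Pdyn met in 6 of 380 Control barcodes, 1.58% (0.582 to 3.40), and in 2 of 361 SC300 barcodes, 0.554% (0.067 to 1.99). With Sox14 added, which all 6 Control barcodes held, SC300 had 0 of 361, which allows a share of up to 1.02%. Control stayed at 6 of 380, because these 4 genes are what its own barcodes shared. The intervals overlap, and the counts only describe these barcodes. Ependymal genes gave 13 UMIs in the fourth SC300 barcode and 6 in the fourth Control barcode, and 0 or 1 in each of the others. Oligodendrocyte genes gave 0 or 1 UMI in each of the 6 Control barcodes and 0 to 4 in the 7 SC300 barcodes.

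**Figure D2:**
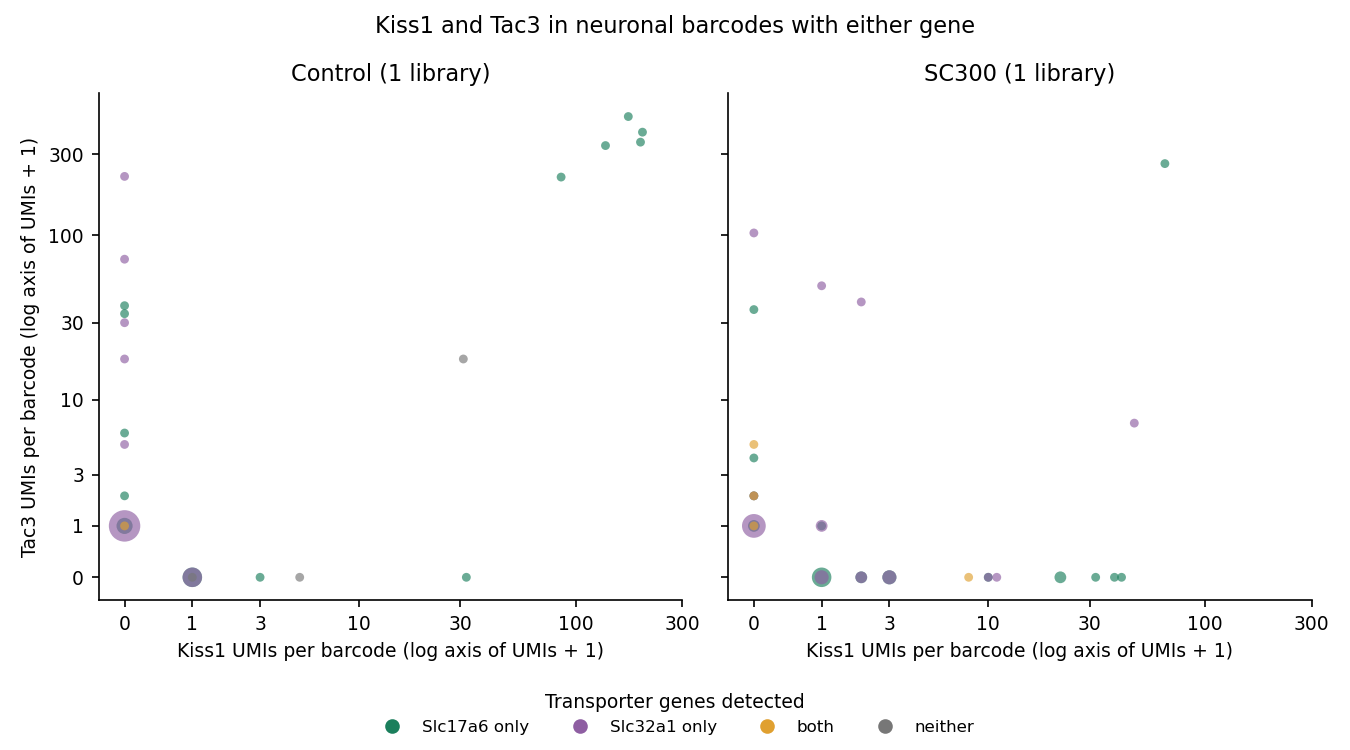
Kiss1 (horizontal) against Tac3 (vertical) UMIs per neuronal barcode with either gene, Control left and SC300 right, both on a log axis of UMIs plus 1. Colors give the transporter genes detected, and a larger point is more barcodes at the same counts. In Control 5 barcodes lie at the upper right with 86 to 199 Kiss1 and 220 to 499 Tac3 UMIs, and in SC300 1 barcode does, with 66 and 264.

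Most Kiss1 UMIs of SC300 neurons were outside the barcodes with Tac3. Kiss1 without Tac3 was found in 16 Control barcodes (4.21%) with 53 UMIs, 6.08% of the neuronal total, and 1 of them held 32 UMIs. In SC300 there were 28 such barcodes (7.76%) with 231 UMIs, 65.8% of the total. Of these, 8 held 10 or more Kiss1 UMIs, and together they held 188 UMIs, 53.6% of the total. The 8 barcodes held 42, 39, 32, 22, 22, 11, 10 and 10 Kiss1 UMIs, and 6 of them held Slc17a6, 2 Slc32a1, 5 Tac1, 4 Pdyn, 1 Sox14 and 3 Esr1. In the barcode with 42, 53.1% of UMIs were mitochondrial, and in 1 of those with 10 it was 32.6%. The barcode with 39 held 12 UMIs of ependymal genes. Over all 28 SC300 barcodes, Tac1 was in 10, Pdyn in 13 and Sox14 in 6, and over the 16 Control barcodes they were in 2, 2 and 0. Of all neuronal barcodes, Tac1 was in 23.9% in Control and 34.1% in SC300. Pdyn was in 23.7% and 28.8% of all, Sox14 in 11.3% and 10.5%, Slc17a6 in 35.0% and 39.9%, and Slc32a1 in 60.5% and 56.0%. AVPV and ARC were dissociated together, so barcodes of the 2 nuclei cannot be told apart.

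Tac3 without Kiss1 was mostly at low counts, and Slc32a1 is given beside its share of all neuronal barcodes, 60.5% in Control and 56.0% in SC300. In Control, 30 barcodes held 448 such Tac3 UMIs, 19.7% of the total, of which 21 barcodes held 1 UMI and the highest 222, and 22 of the 30 held Slc32a1. In SC300, 19 barcodes held 166 UMIs, 31.3% of the total, with 12 at 1 UMI and the highest at 103 and 36, and 14 of the 19 held Slc32a1. Single UMIs are a level that free RNA also gives. Tac1 was co-detected in 4 of the 30 and in 9 of the 19, beside 23.9% and 34.1% of all neuronal barcodes.

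Split by transporter gene, the summed Kiss1 UMIs differed in opposite directions, while the shares of barcodes with Kiss1 did not. In barcodes with Slc17a6 only (119 in Control, 133 in SC300), Kiss1 was at 829 UMIs in 13 barcodes and 253 in 19, which is 201 and 48.6 CPM and a log2 ratio of -2.05 (-2.26 to -1.84). In barcodes with Slc32a1 only (216 and 191), Kiss1 was at 6 UMIs in 6 barcodes and 90 in 15, which is 0.95 and 16.4 CPM and a log2 ratio of 4.11 (2.93 to 5.59). The log2 ratios of the shares were 0.39 (-0.71 to 1.53) and 1.499 (0.05 to 3.15). The 5 highest barcodes held 95.1% and 79.4% of the sums with Slc17a6 only, and 83.3% of the SC300 sum with Slc32a1 only, where the barcode with 48 Kiss1 UMIs named above belongs. With Slc17a6 only, Tac3 was lower in SC300, with a log2 ratio of -2.95 (-3.13 to -2.78). With Slc32a1 only the Tac3 ratio was -0.57 (-0.82 to -0.32), which is within 1.5-fold. There, 1 Control barcode held 222 of 363 Tac3 UMIs, and 1 SC300 barcode held 103 of 213. The log2 ratios of the Tac3 shares were -1.05 (-2.62 to 0.38) and -0.21 (-1.25 to 0.79), and both intervals hold 0. Whether the 2 kinds of neuron differ in response could not be tested with 1 library each.

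Tac1, the precursor of substance P and neurokinin A, was detected in many neuronal barcodes of both libraries, and in a larger share in SC300 at nearly the same level. The sums were 3069 UMIs in Control, 258 CPM (249 to 267), and 3479 in SC300, 292 CPM (283 to 302), a log2 ratio of 0.18 (0.11 to 0.25). Barcodes with the gene numbered 91, 23.9% (19.7 to 28.6), and 123, 34.1% (29.2 to 39.2), a log2 ratio of shares of 0.51 (0.11 to 0.92). At 2000 UMIs they numbered 36 (9.47%) and 46 (12.8%), and the interval of the ratio, 0.43 (-0.23 to 1.10), then held 0. The count in a barcode that held the gene was alike, with a median of 5 UMIs in both libraries, a highest of 423 and 330, and 32 and 46 barcodes at 10 or more. In microglia 7 of 494 (1.42%) and 8 of 489 (1.64%) held a Tac1 UMI, and in oligodendrocytes 4 of 399 (1.00%) and 14 of 511 (2.74%). In barcodes with Slc17a6 only the level was 402 and 337 CPM, and in those with Slc32a1 only it was 214 and 254 CPM.

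Pdyn, the dynorphin precursor, was 1.60-fold higher in SC300 neurons. The sums were 927 UMIs, 77.9 CPM (73.0 to 83.1), and 1483 UMIs, 124.5 CPM (118 to 131), a log2 ratio of 0.68 (0.56 to 0.80). Pdyn was in 90 (23.7%) and 104 barcodes (28.8%), and after thinning in 25 and 30. Most of these lacked Kiss1, which was in 8 of the 90 and 15 of the 104. The highest Control barcode, with 280 Pdyn UMIs, held 32991 UMIs of Avp, which encodes vasopressin. The highest SC300 barcode, with 166, held 11247 UMIs of Hcrt, the orexin precursor, and SC300 barcodes with 108 and 83 Pdyn UMIs held 5457 and 23669 UMIs of Oxt, which encodes oxytocin. Barcodes with at least 1000 Oxt or Avp UMIs, a limit chosen after these values were seen, numbered 7 and 10 and held 35.9% and 30.6% of neuronal Pdyn UMIs. Without them Pdyn was at 51.8 and 93.3 CPM, a log2 ratio of 0.85 (0.70 to 1.00). Without the highest barcode the ratio was 1.03. It was under the 1.5-fold limit without doublets (0.54), with 1 neuronal marker more (0.53), without barcodes holding 3 microglia or oligodendrocyte markers (0.47), with every barcode weighted alike (0.42) and thinned (0.32, from -0.33 to 0.97). Oligodendrocytes held a Pdyn UMI in 7 of 399 (1.75%) and 8 of 511 (1.57%).

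Sox14, the transcription factor, was detected at low counts in many barcodes rather than at high counts in few. It had 192 UMIs in 43 Control barcodes (11.3%), 16.1 CPM (13.9 to 18.6), and 122 UMIs in 38 SC300 barcodes (10.5%), 10.2 CPM (8.51 to 12.2). The log2 ratio was -0.66 (-0.99 to -0.32), 1.57-fold lower, and -0.55 when 1 neuronal marker more was asked, which is within 1.5-fold. The highest barcode held 11 and 8 UMIs. The level was 21.8 and 18.1 CPM in barcodes with Slc17a6 only, a log2 ratio of -0.27 (-0.70 to 0.16), and 15.1 and 5.09 CPM in those with Slc32a1 only, -1.56 (-2.23 to -0.94). Sox14 had at most 1 UMI in microglia, oligodendrocytes and astrocytes of each library. All barcodes that were neither neuronal nor tanycyte held 22 and 28 Sox14 UMIs, a log2 ratio of 0.11 (-0.75 to 0.98).

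Tacr3, the neurokinin B receptor, was higher in SC300 neurons. It had 71 UMIs in 30 Control barcodes (7.89%), 5.97 CPM (4.66 to 7.53), and 187 UMIs in 38 SC300 barcodes (10.5%), 15.7 CPM (13.5 to 18.1). SC300 was 2.63-fold higher, a log2 ratio of 1.40 (0.99 to 1.81). The highest Control barcode held 8 UMIs, whereas 2 SC300 barcodes held 33 each, with 31 and 38 UMIs of the GABA enzyme gene Gad1, 2 and 11 of Slc17a6 and 0 of Slc32a1. SC300 barcodes with 14 and 10 Tacr3 UMIs held 5457 and 3302 UMIs of Oxt. Barcodes with at least 1000 Oxt or Avp UMIs held 4.23% of neuronal Tacr3 UMIs in Control and 27.3% in SC300, and without them the log2 ratio was 1.06 (0.63 to 1.499) with 29 barcodes in each library. With every barcode weighted alike it was 0.57, under the 1.5-fold limit. Without the 5 highest barcodes of each library 46 and 85 UMIs were left, a log2 ratio of 0.90 (0.37 to 1.45). The log2 ratio of the shares was 0.42 (-0.31 to 1.16), which holds 0, and -0.03 at a log-normalized value above 0.5.

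The receptors Oprk1 and Tacr1 showed no difference that these counts could resolve. Oprk1 had 51 UMIs in 41 Control barcodes (10.8%), 4.29 CPM (3.19 to 5.64), and 58 UMIs in 39 SC300 barcodes (10.8%), 4.87 CPM (3.70 to 6.30). Its log2 ratio was 0.18 (-0.38 to 0.76), and 0.62, past 1.5-fold, with every barcode weighted alike, and no barcode held more than 4 UMIs. Oprk1 was counted outside neurons more than the other 6 detected genes, with 53.1% and 60.4% of the library's Oprk1 UMIs in neuronal barcodes, against 89.9% and 97.9% for Tacr3. Tacr1, the substance P receptor, had 1 UMI in all Control barcodes and 0 in all SC300 barcodes. It was absent from 380 and 361 neuronal barcodes, where a floor of 3 counts is a share of 0.789% and 0.831%.

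Among pairs of the 7 genes detected in neuronal barcodes, the widest gaps in co-detection were those of Tac1 with Kiss1 and with Tac3. Of the barcodes with Kiss1, Tac1 was also in 2 of 22 (9.09%) in Control and 13 of 35 (37.1%) in SC300. Of those with Tac3, Tac1 was in 4 of 36 (11.1%) and 12 of 26 (46.2%). Most of these 12 SC300 barcodes held a single Tac3 UMI. Tac1 was itself in 23.9% and 34.1% of all neuronal barcodes, so the Control pairs lay under that share and the SC300 pairs near or over it. The gaps were in the other direction for Kiss1 with Oprk1, at 5 of 22 (22.7%) and 1 of 35 (2.86%), Kiss1 with Tacr3, at 5 of 22 (22.7%) and 2 of 35 (5.71%), and Tac3 with Sox14, at 7 of 36 (19.4%) and 1 of 26 (3.85%). Pdyn was with Kiss1 in 8 of 22 (36.4%) and 15 of 35 (42.9%), and with Sox14 in 25 of 43 (58.1%) and 20 of 38 (52.6%) of the Sox14 barcodes. Tacr3 barcodes held Pdyn in 14 of 30 (46.7%) and 18 of 38 (47.4%). A pair in a barcode of many UMIs is more readily seen than in a shallow one. A pair with a single UMI of either gene can come from free RNA.

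**Figure D3:**
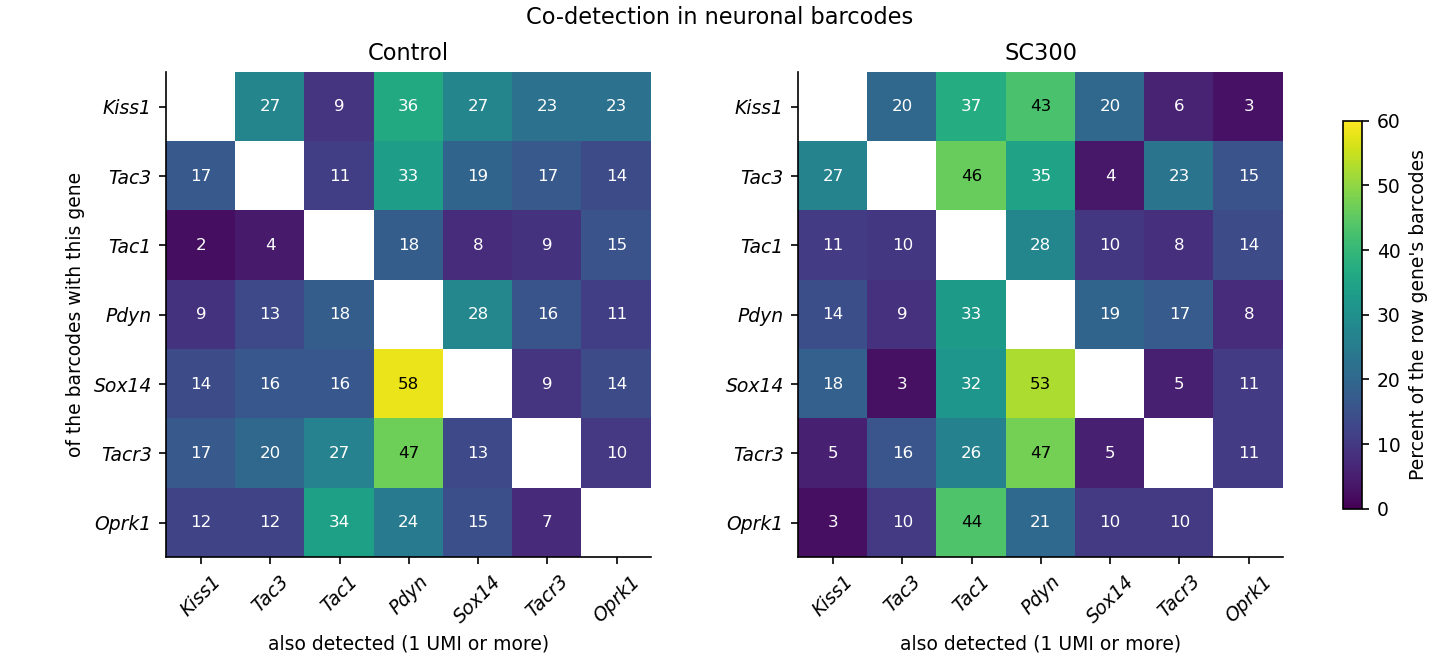
Percent of neuronal barcodes with the row gene that also held at least 1 UMI of the column gene, Control left and SC300 right, on a color scale from 0 to 60%. Tacr1 is left out because no neuronal UMI was counted. The Tac1 column is lighter in SC300 in the Kiss1 row (9.09 and 37.1%) and the Tac3 row (11.1 and 46.2%).

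Tanycytes held Kiss1 at low counts in about the same share of barcodes in both libraries. Kiss1 had 121 UMIs in 79 of 321 Control tanycytes, 24.6% (19.996 to 29.7), and 66 UMIs in 42 of 194 SC300 tanycytes, 21.6% (16.1 to 28.1). The levels were 24.0 CPM (19.9 to 28.7) and 18.3 CPM (14.2 to 23.3), and the log2 ratio of -0.39 (-0.85 to 0.05) held 0 within its interval. With every barcode weighted alike the ratio was -0.77, and thinned it was -0.92 (-2.11 to 0.15), both past 1.5-fold. At 2000 UMIs per barcode 28 of 313 (8.95%) and 10 of 191 (5.24%) held it. A single UMI was found in 51 and 27 of these barcodes, 2 UMIs in 20 and 12, and the highest count was 6 and 9. The share was far over the 0.202% of Control microglia and the 0.752% of Control oligodendrocytes, although the latter were deeper.

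Tanycytes with and without Kiss1 differed in other genes, given here as a description. In Control, the tanycyte gene Crym was at 2512 CPM in the 79 with Kiss1 and 1463 CPM in the 242 without, and Rax was in 11.4% and 3.72%. In SC300, Crym was at 3491 CPM in the 42 with Kiss1 and 2302 in the 152 without, and Rax was in 16.7% and 3.29%. The other genes of the tanycyte rule, Lhx2, Stra6, Calml4 and Ppp1r1b, were also at higher CPM with Kiss1 in both libraries. The further tanycyte genes Vim, Col25a1, Scn7a and Frzb were at lower CPM with Kiss1 in both. Vim was at 3234 CPM with and 3483 without Kiss1 in Control, and at 2139 and 3007 in SC300. Frzb, which encodes a secreted Wnt antagonist, was in 19.0% and 38.0% in Control and in 26.2% and 24.3% in SC300. Neuronal transporters were nearly absent, with Slc17a6 in 1 and Slc32a1 in 0 of the 79 Control barcodes with Kiss1, and both in 0 of the 42 SC300 barcodes. Median depths were 10843 and 10873.5 UMIs with and without Kiss1 in Control, and 13621.5 and 11886 in SC300.

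Tac1 was at the level of the background classes in Control tanycytes and higher in SC300 tanycytes. It had 6 UMIs in 6 of 321 Control barcodes, 1.87% (0.689 to 4.02), 1.19 CPM (0.437 to 2.59), and 196 UMIs in 49 of 194 SC300 barcodes, 25.3% (19.3 to 31.98), 54.4 CPM (47.1 to 62.6). SC300 was 45.7-fold higher, a log2 ratio of 5.51 (4.37 to 6.98). At 2000 UMIs 2 (0.639%) and 23 barcodes (12.0%) held it. Of the 2 genes with at least 50 UMIs in tanycytes, Tac1 was over 1.5-fold higher and Kiss1 was within 1.5-fold. Of the 9216 tanycyte genes, 3.93% were over 1.5-fold higher and 6.76% lower. Tac1 reached 50 UMIs only through SC300, so its place among the higher genes followed from that limit and adds no support. The SC300 counts were spread over barcodes, with 16 at 1 UMI, 11 at 2, 12 at 3 to 5, 5 at 6 to 10 and 5 at 11 or more, the highest being 24 and 16. All 6 Control barcodes held 1 UMI.

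**Figure D4:**
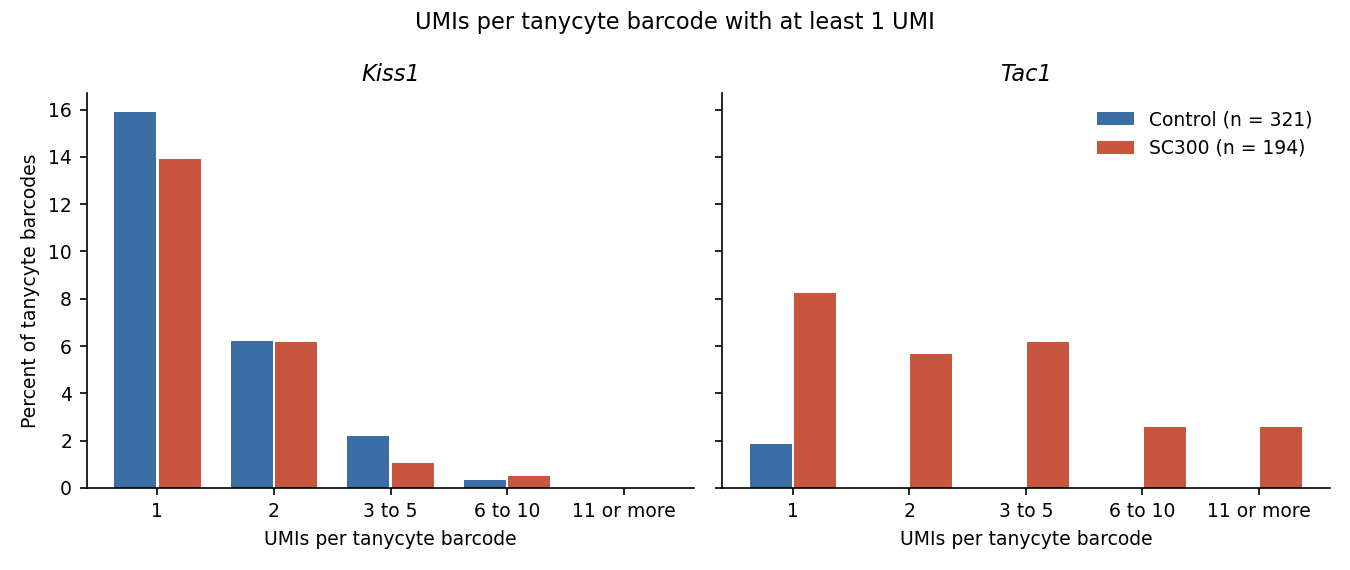
Percent of tanycyte barcodes (vertical, from 0) by the number of Kiss1 (left) or Tac1 (right) UMIs in the barcode (horizontal), for barcodes with at least 1 UMI, Control in blue (n = 321) and SC300 in red (n = 194). The Kiss1 bars fall off alike in both libraries, and Tac1 bars above 1 UMI are present in SC300 alone.

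Other genes were also higher in SC300 than in Control tanycytes. Muscle genes (Tnnc2, Trdn, Cox6a2, Ckm and Acta1) summed to 48 UMIs in Control and 667 in SC300, or 9.53 and 185 CPM, and Ckm had 0 UMIs. Haemoglobin genes summed to 159 and 1597 CPM. Of the 49 SC300 tanycytes with Tac1, 27 (55.1%) held Trdn and 26 (53.1%) held Dio3, the deiodinase that inactivates thyroid hormone, against 32 (22.1%) and 33 (22.8%) of the 145 without. Tnnc2 was in 22 (44.9%) and 20 (13.8%), at 70.5 and 81.1 CPM. Frzb was in 5 (10.2%) and 43 (29.7%), and Kiss1 in 11 (22.4%) and 31 (21.4%). The lean was not particular to Tac1. Trdn and Dio3 were each in 19 (45.2%) of the 42 SC300 tanycytes with Kiss1 and 40 (26.3%) of the 152 without. The neuronal genes Slc17a6, Slc32a1 and Gad2 were in 0 of the 49, and in 1, 0 and 4 of the 145. The pan-neuronal gene Snap25 was in 8 of the 49 and 16 of the 145, and Syt1 in 11 and 27. Both were thus in a larger share of the barcodes with Tac1. Over all tanycytes, with and without Tac1, pan-neuronal genes summed to 123 CPM in Control and 107 CPM in SC300. The part of muscle, haemoglobin or neuronal RNA in the Tac1 level was not tested.

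The remaining genes were near 0 in tanycytes. Pdyn had 4 and 4 UMIs, Oprk1 6 and 2, Tac3 1 and 0, and Tacr3 1 and 0 in Control and SC300. Sox14 and Tacr1 had 0 UMIs, where a floor of 3 counts is a share of 0.935% in Control and 1.55% in SC300.

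Across 10 classes of barcodes, Kiss1 was highest in neuronal and next in tanycyte barcodes in both libraries. Ependymal barcodes followed at 2.60 and 2.31 CPM from 2 UMIs each, and astrocytes at 1.57 and 1.49 CPM from 19 and 22 UMIs, so that the order of these classes lies within counting error. Tac3 and Pdyn were also highest in neuronal barcodes, which held 96.6% and 83.3% of the library's Tac3 UMIs and 94.4% and 96.5% of its Pdyn UMIs. For Tac1 the order below neurons differed between libraries. In Control, oligodendrocyte precursors came next with 11 UMIs in 8 of 34 barcodes, 47.4 CPM, and in SC300 tanycytes came next at 54.4 CPM, followed by precursors with 3 UMIs at 13.6 CPM. Astrocytes held Tac1 at 1.41 CPM from 17 UMIs and 2.97 CPM from 44.

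**Figure D5:**
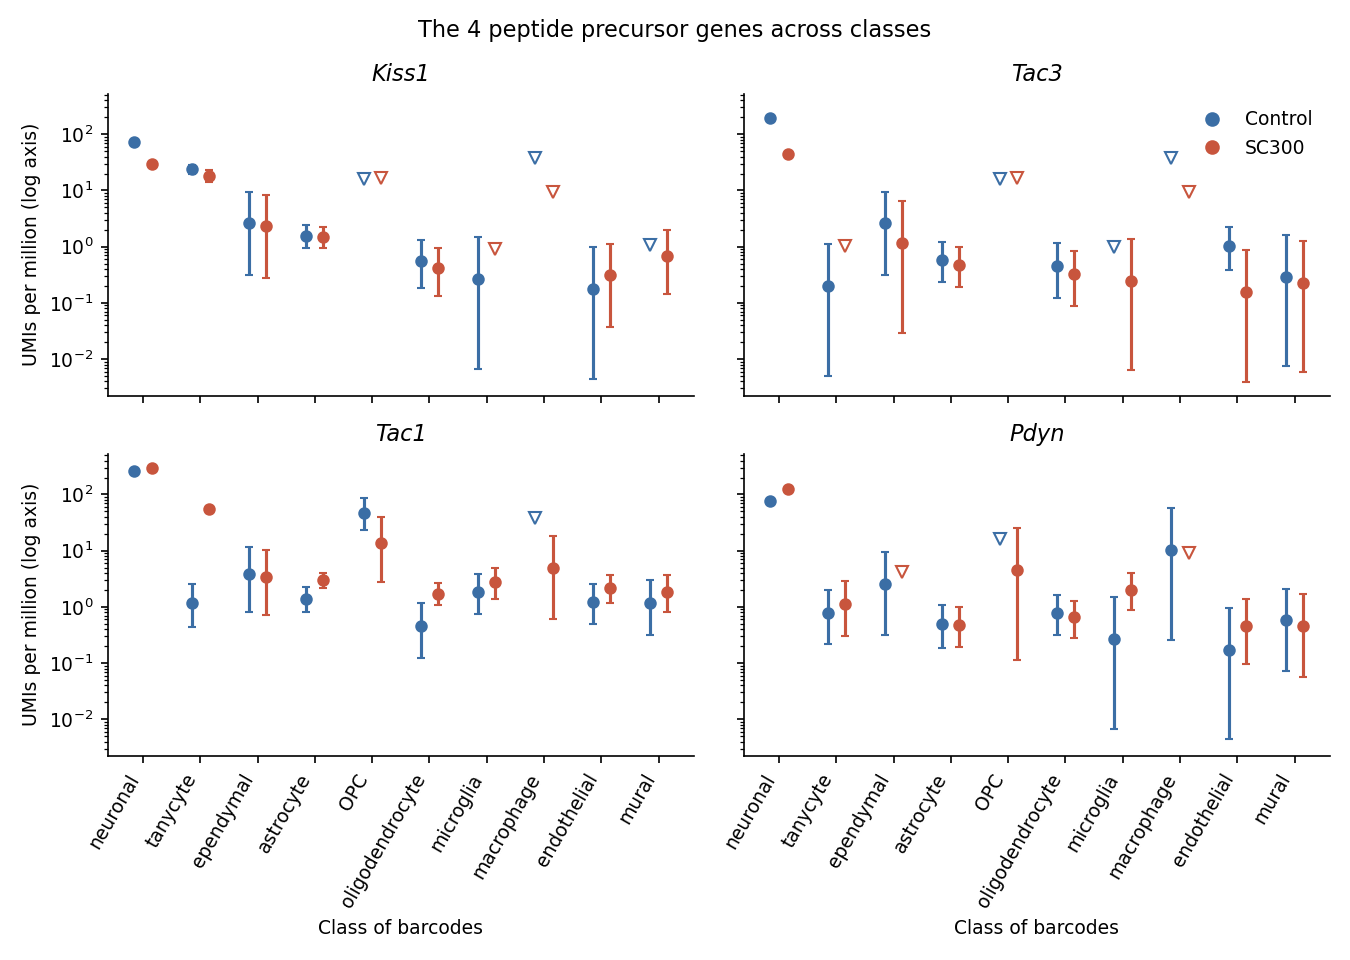
Level of Kiss1, Tac3, Tac1 and Pdyn in CPM (log axis) in 10 classes of barcodes chosen by marker genes, Control in blue and SC300 in red. Points are 1 library each, bars are exact 95% Poisson intervals, and open triangles are upper limits where no UMI was counted. Neuronal barcodes are highest for each gene, and the tanycyte points of Tac1 are at 1.19 and 54.4.

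Of 13 other ligand and receptor genes of the kisspeptin, tachykinin, opioid and RF-amide systems, 6 had at least 50 neuronal UMIs, with 0 lower and 1 higher past 1.5-fold and a median log2 ratio of 0.23, against 6.99% lower and 2.68% higher of all neuronal genes, so that so few genes cannot be told apart from the background. The higher one was Npvf, which encodes a gonadotropin-inhibiting peptide, with 856 UMIs in 1 Control barcode and 2707 in SC300, of which 1 barcode held 2702. The kisspeptin receptor Kiss1r had 61 UMIs in 48 barcodes and 72 in 60, a log2 ratio of 0.24. Penk and Pomc, the enkephalin and melanocortin precursors, had log2 ratios of 0.21 and -0.35. Gnrh1, the target of kisspeptin, had 4 and 2 UMIs, and its symbol covers more than 1 identifier. In tanycytes Pomc was the only gene of this list with at least 50 UMIs. It was at 444 CPM in the Control and 106 in the SC300 library (log2 ratio -2.07). Of the 9216 tanycyte genes with that many UMIs, 6.76% were over 1.5-fold lower.

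Of 12 receptor, transmitter and peptide genes known from ARC neurons, 11 had at least 50 neuronal UMIs, with 2 lower and 3 higher past 1.5-fold and a median log2 ratio of 0.14, beside the same 6.99% and 2.68% of all neuronal genes. Esr1, the estrogen receptor alpha gene, had 108 UMIs in 49 Control barcodes and 52 in 34 SC300 barcodes, a log2 ratio of -1.06 (-1.56 to -0.57). Th, the dopamine synthesis enzyme, had 518 and 202 UMIs (log2 ratio -1.36). Among those past the limit in the other direction were the prolactin receptor Prlr with 126 and 198, and Ghrh, which encodes growth hormone-releasing hormone, with 2563 UMIs in 39 barcodes and 7521 in 47. Pgr had 10 UMIs in 8 barcodes and 33 in 28, a log2 ratio of 1.72 (0.67 to 2.91), and was not counted because its sum was under 50 UMIs.

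Over the pooled libraries, the genes whose counts went with Kiss1 were led by its ARC partner Tac3, which did not lead in either library alone. Over the 741 neuronal barcodes of both libraries, with log-normalized values of 13406 genes, the highest Pearson correlations with Kiss1 were those of Tac3 (r = 0.633), Spp1 (0.625), Nr5a2 (0.543), Shisal2a (0.413) and Batf3 (0.398). For Tac3 they were Kiss1 (0.633), Spp1 (0.609), Nr5a2 (0.497), Inhbb (0.413) and Emp3 (0.355). Barcodes share library and differ in depth, and for Kiss1 and Tac3 few barcodes at high counts set these values. Pdyn went with Nptx2 (0.507), Slc17a6 (0.324), Nell2 (0.322), C1ql2 (0.318) and Oxt (0.312). Sox14 went with Krt25 (0.347), LOC102547937 (0.340), Lbhd2 (0.333), Thrb (0.324) and Rarb (0.323). The values for Tac1 were lower, from 0.256 for Fam237a through Ramp3 (0.233), Glra2 (0.210) and Cd44 (0.202) to 0.187 for Camk2d. Over 515 tanycytes, Kiss1 went with Maob (0.258), Fezf2 (0.247), Ces1d (0.241), Rflna (0.228) and Pdlim4 (0.228), and Tac1 with Trdn (0.407), Cpne5 (0.348), Dio3 (0.333), Inpp5d (0.318) and Krt32 (0.315). The last 5 values pool libraries that differ in Tac1, and within SC300 tanycytes they were 0.337, 0.342, 0.290, 0.295 and 0.271 in the same order, while in Control, with 6 Tac1 UMIs, they lay from -0.03 to 0.05. Within libraries, Kiss1 with Tac3 was at 0.798 in Control and 0.276 in SC300 neuronal barcodes, and Kiss1 with Spp1 at 0.824 and 0.274. Kiss1 with Nr5a2 was at 0.734 and 0.292, and with Batf3 at 0.448 and 0.333.

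Some other genes were at a higher level in the 13 neuronal barcodes with Kiss1 and Tac3, though not in all of them. Eligible genes needed at least 20 UMIs and detection in at least 0.5 of these same barcodes. That choice favors high ratios, which are given only as a description of these barcodes. Among 3321 genes compared with the other neuronal barcodes, and apart from the 2 genes that chose them, the highest ratios of CPM were those of Inhbb (17.2-fold), which encodes an inhibin and activin subunit, and Shisal2a (13.4-fold). Of the 6 Control barcodes 4 held Inhbb and 5 Shisal2a, and of the 7 SC300 barcodes 3 held each. Others were Fdxr (6.50-fold), the transcription factor Nhlh2 (6.31-fold, in 5 and 2), Sox14 (5.50-fold, in 6 and 1), Hs3st5 (4.68-fold) and Nr4a2 (3.86-fold, in 6 and 2). With at least 2 UMIs of both genes, over 9 barcodes, Spp1 (129-fold) and Nr5a2 (42.9-fold) led, each in 5 Control barcodes and 1 SC300 barcode.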

How the data were processed

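Droplet single-cell 3′ libraries were made from pooled hypothalamic tissue, 1 Control and 1 SC300. The authors aligned reads to the Ensembl 96 transcriptome with Cell Ranger (version 3.0.1 per the file headers) and deposited UMI counts per gene and barcode, not normalized. Whether merging the libraries changed the counts is not given in the sources used here. The cell totals in the study's methods before filtering equal the deposited barcodes, and its lower totals are below what its minimum of 200 genes leaves here.

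Barcodes with at least 200 detected genes were kept (4296 of 4488 and 4379 of 4524). Classes came from marker genes, neuronal ones needing 4 of 6 and tanycytes 3 of 5 with under 2 Snap25 UMIs; 3 Control barcodes and 1 SC300 barcode were in both. Some listed markers (Dio2, Foxj1, Pecam1, Ly6c1, Hba-a1) were not used here. Summed UMIs were compared as CPM, shares also after thinning to 2000 UMIs, and genes with at least 50 UMIs over both libraries were counted past 1.5-fold. An interval or floor (3 counts for a count of 0) covers counting error only. Scrublet (scanpy 1.11.5) marked 70 (1.63%) and 73 (1.67%) barcodes as doublets, which were kept and left out as an alternative. Python 3.11.15, numpy 2.4.6, scipy 1.17.1, pandas 2.3.3 and matplotlib 3.10.9 were used, and the scripts were tested on simulated data.

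Named genes were the 8 genes, a list of 13 ligands and receptors of these systems, a list of 12 ARC genes, the 5 genes of highest correlation and the 10 of highest ratio in Kiss1 and Tac3 barcodes, of which those with at least 0.5 of barcodes and 20 UMIs were eligible. Some genes that this rule names are not reported here. Genes and lists were chosen with earlier results of these data known. Alternatives changed the gene minimum, mitochondrial share, doublets, markers, scaling, weights, thinning, UMI minimum and the highest barcodes.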

Additional observations from a re-analysis of the deposited data

Results flagged for a closer look

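The change in the Kiss1 share of barcodes had opposite signs in neuronal and tanycyte barcodes. The log2 ratio of SC300 over Control was 0.74 in neuronal and -0.18 in tanycyte barcodes, a difference of 0.93. The difference was not tested, and the interval of each ratio holds 0.

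Between neuronal barcodes with Slc17a6 only and those with Slc32a1 only, 3 values had opposite signs. The Kiss1 CPM ratio was -2.05 and 4.11, a difference of -6.15 on the log2 scale. The Tac1 CPM ratio was -0.25 and 0.24, a difference of -0.497. The Tacr3 share ratio was -0.08 and 0.97, a difference of -1.04. With 1 library per group none of these differences was tested.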

How the results depend on the processing

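Over 24 results and 275 values under the alternatives, 235 stayed within the interval of counting error (counts and shares of genes within 1.5-fold), 39 moved and 1 reversed. Only a result past 1.5-fold with an interval that left out 0 could be called reversed. Other changes of sign were counted as stayed or moved. The Tacr3 share ratio in neuronal barcodes, 0.42, was -0.03 at a log-normalized value above 0.5 and was counted as stayed. No paired analysis was possible because each group has 1 library and the groups share 1 replicate number. With rats pooled, biological spread is unknown, and low counts limit Oprk1, Tacr1 and tanycyte values.

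The Kiss1 neuronal log2 ratio of CPM, -1.31, was -1.499 at no more than 20% mitochondrial UMIs, -1.67 thinned to 2000 UMIs, and reversed to 0.57 without the 5 highest barcodes. Tac3, -2.11, was -2.25 without doublets, -2.81 with 1 marker more, -2.26 with barcodes weighted alike, -2.74 without the highest barcode, -3.64 without the 5 highest, -2.44 thinned and -2.29 without barcodes with 3 ependymal markers. Tac1, 0.18, was 0.29 at no more than 20% mitochondrial UMIs, 0.26 without doublets, 0.41 weighted alike, 0.31 without the 5 highest and 0.48 thinned. Pdyn, 0.68, was 0.54 without doublets, 0.53 with 1 marker more, 0.47 without barcodes with 3 microglia or oligodendrocyte markers, 0.42 weighted alike, 1.03 without the highest barcode, 0.97 without the 5 highest, 0.32 thinned and 0.85 without barcodes with 1000 oxytocin or vasopressin UMIs. Thinned, Sox14 was -1.51 and its share ratio -0.92. Tacr3, 1.40, was 0.57 weighted alike, 0.90 without the 5 highest and 0.81 thinned. The Oprk1 share ratio at 2 UMIs or more was 0.88. The 7 SC300 barcodes with Kiss1 and Tac3 were 1 thinned, 2 at a log-normalized value above 0.5 and 3 at 2 UMIs or more. In tanycytes, thinned, the Kiss1 CPM ratio was -0.92 and its share ratio -0.77, and without the 5 highest barcodes the Tac1 CPM ratio was 7.38, from 1 and 118 UMIs. Past 2-fold, 2.98% of neuronal genes were lower and 1.15% higher, and 1.87% and 1.37% of tanycyte genes; with at least 20 UMIs, 6.23% of tanycyte genes were higher. Leaving out barcodes with ependymal markers or with oxytocin or vasopressin was chosen after seeing the data. The cause of these moves was not tested, beyond the barcodes left out.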
